A study of Homo sapiens with 6 samples.

Results

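The genes described here are 51 autophagy, lysosome and TFEB genes, taken by symbol from a list that spans autophagy initiation, vesicle formation, cargo receptors, the MiT/TFE transcription factors and the lysosome. Each of the 51 symbols matched 1 row among the 50868 genes in the deposited count tables, and all 51 had enough reads to be tested. RNA was sequenced from DU145, a human prostate cancer line that grows without androgen. The siCtrl group held 3 libraries, transfected with a control siRNA and labelled RCC2 wild type, and the siRCC2 group held 3 libraries labelled RCC2 knockdown. The dose, duration and sequence of the siRNAs are not stated in the sources used here. All 6 libraries came from the same line, and nothing in the labels says that replicates were separate cultures, so p-values cover only how far these libraries spread, and that spread may be technical. DU145 cells are known to splice ATG5 defectively and to lack the full-length ATG5 protein. Counts per gene do not show which isoform was made, and RNA levels do not measure autophagic flux.

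Autophagy delivers cytoplasmic cargo to the lysosome inside a double-membrane vesicle. The ULK1 kinase complex starts the process, a class III PI3-kinase complex marks the membrane, lipid transfer proteins extend it, and a ubiquitin-like conjugation system attaches ATG8 proteins that receptors such as SQSTM1 bind. TFEB, TFE3 and MITF are transcription factors that bind an E-box-like sequence before many lysosomal and autophagy genes, and mTORC1 is known to hold TFEB in the cytoplasm in fed cells.

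RCC2, the targeted gene, was lower in every library labelled siRCC2. Its counts were 3998, 3598 and 3702 in siCtrl and 980, 1117 and 1045 in siRCC2 (replicates 1, 2 and 3 in that order, here and in every list of counts), so the groups did not overlap. Its mean was 194 ± 3.84 CPM (counts scaled to a common library size; SD, n = 3) in siCtrl and 57.2 ± 2.25 CPM (SD, n = 3) in siRCC2. The log2 fold change was -1.76 ± 0.07 (SE), and the adjusted p was 2.00e-05 in edgeR's quasi-likelihood test with Benjamini-Hochberg adjustment, the test used throughout. A gene is said to have risen or fallen where its adjusted p over all genes tested was under 0.05.

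Total counts ran from 17377191 to 19895431 per library, so 1 CPM stood for 17.4 to 19.9 reads. All 6 epithelial markers were present, from 15.4 CPM for EPCAM to 3588 CPM for KRT7 in siCtrl. Of these, KRT8, KRT18 and CDH1 rose, KRT7 and EPCAM fell (log2 fold changes -1.13 and -0.48) and KRT19 was not called. Among leukocyte genes, CD3E had no count in any library and PTPRC at most 1, while ITGAM had 8, 7 and 19 counts in siCtrl and 0, 1 and 1 in siRCC2. CD68, which encodes a protein of the lysosomal membrane, had 16.3 CPM in siCtrl and 19.2 in siRCC2 and was not called. The part of these markers in the other results was not tested. The siRCC2 replicate 1 library stood apart by transcript length: tested genes in the longest length quintile (5539 bases or more) had a median log2 deviation of -0.21 there from the mean of the other siRCC2 libraries, against 0.07 and 0.14 in siRCC2 replicates 2 and 3. Between the groups, the median log2 fold change was -0.13 in the longest quintile and 0.09 in the shortest. In bulk RNA, fewer cells of a type and less RNA per cell cannot be told apart.

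Of the 51 genes, 15 rose, 6 fell and 30 did not pass the test. Across all 16536 genes tested, 41.8% were called in either direction, 20.7% higher and 21.1% lower. The share of the 51 that was called, 41.2%, was thus near that of all genes, with 29.4% higher and 11.8% lower. Their median log2 fold change was 0.15, beside -0.02 over all genes tested, and single values ran from -1.23 for ATG2B to 1.48 for ATG4A. In CPM, siCtrl and siRCC2 were apart without overlap in 26 of the 51 genes (51.0%), beside 55.4% of all genes tested.

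Of the 15 lysosomal genes (membrane proteins, hydrolases and the proton pump), 8 rose (53.3%) and 1 fell (6.67%), with a median log2 fold change of 0.27. Of the 33 genes of the autophagy machinery and its receptors, 6 rose (18.2%) and 5 fell (15.2%), with a median of -0.02. Both shares of these 33 lay below the 20.7% and 21.1% of all genes tested. The difference between these groups of genes was not tested, since genes are not replicates.

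**Figure D1:**
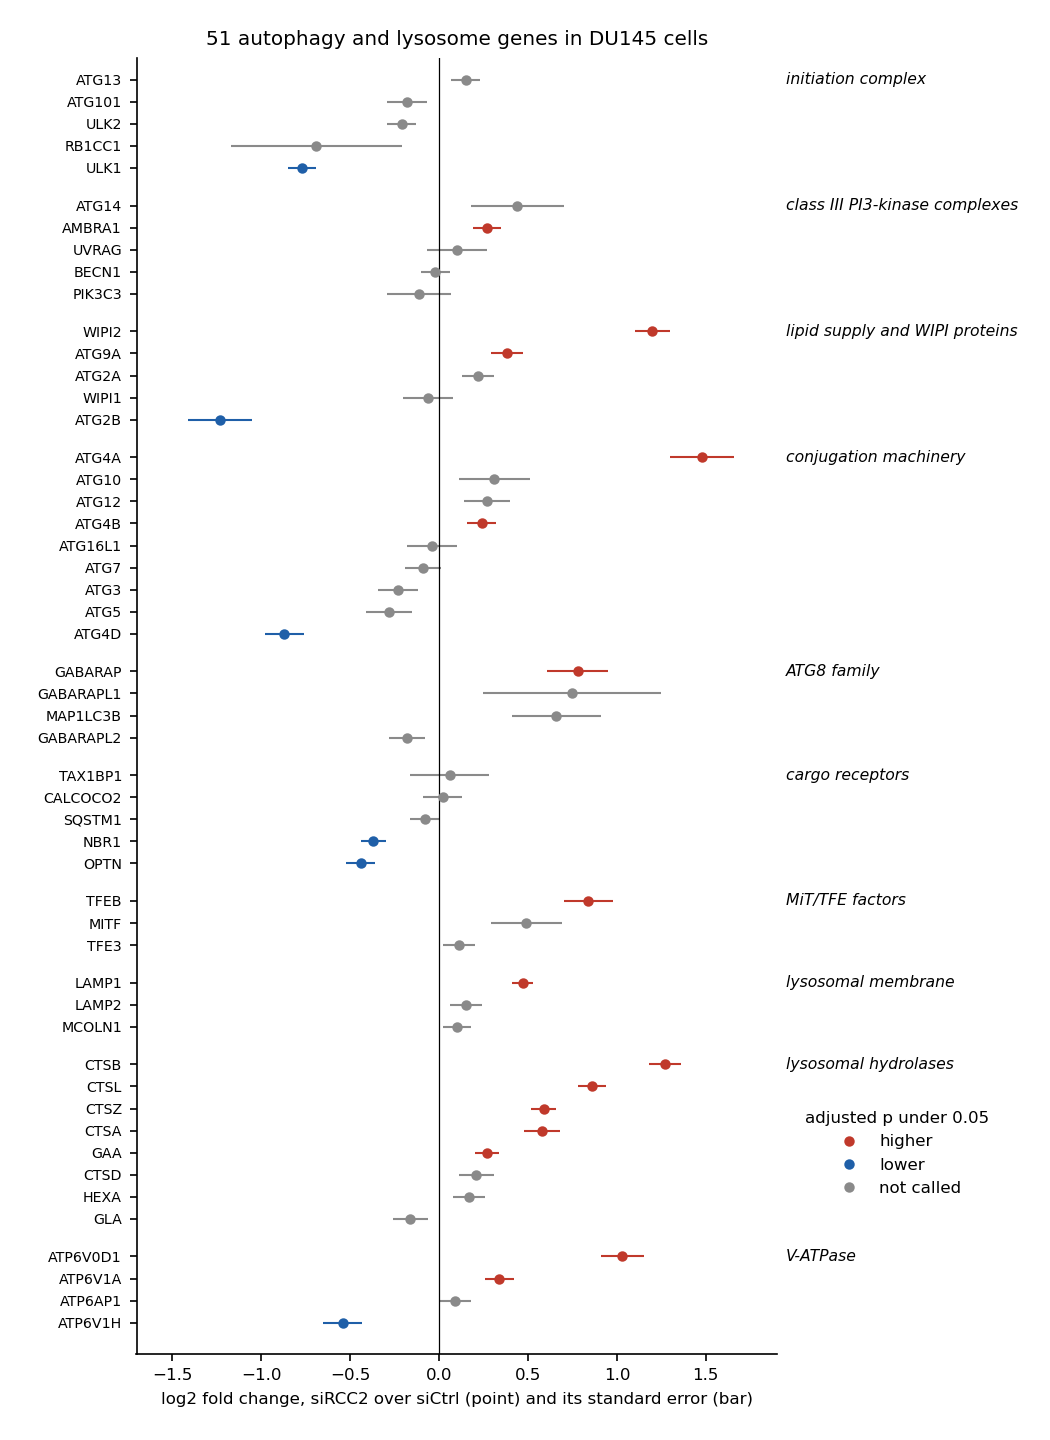
Log2 fold change, siRCC2 over siCtrl, of each of the 51 genes (points) with its standard error (bars), grouped by role and coloured by call. The hydrolases hold 5 red points and no blue point, while the initiation complex and the cargo receptors hold blue points (1 and 2) and no red point. Across all genes tested, 20.7% were called higher and 21.1% lower.

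The initiation complex held 1 gene that fell and none that rose, with a median log2 fold change of -0.21 over its 5 members. A fall in 1 of 5 genes is near the 21.1% called lower of all genes tested, so the group did not stand out by this count. ULK1, the kinase that starts autophagosome formation (chr12:131894651-131923167, GRCh38, plus strand), had 2107, 1810 and 1802 counts in siCtrl and 990, 1110 and 1077 in siRCC2. Every siRCC2 library lay below every siCtrl library, and the mean dropped from 98.3 ± 5.89 to 57.8 ± 1.79 CPM (SD, n = 3 each). The log2 fold change was -0.77 ± 0.08 (SE), with an adjusted p of 0.000388. ULK2, its paralog, had 926, 816 and 948 counts in siCtrl and 669, 774 and 756 in siRCC2. Its groups also did not overlap in CPM, but its log2 fold change of -0.21 ± 0.08 gave an adjusted p of 0.0699 and was not called. ATG13, the subunit that bridges the kinase to its partners, had 1666, 1549 and 1497 counts in siCtrl and 1574, 1707 and 1643 in siRCC2, a log2 fold change of 0.15 ± 0.08 (adjusted p = 0.16).

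RB1CC1, the scaffold of the complex also known as FIP200, had the widest spread of the 51 genes among siRCC2 libraries. It had 774, 819 and 912 counts in siCtrl and 160, 455 and 898 in siRCC2. The siRCC2 replicate 3 library was at the level of siCtrl, and replicate 1 was far below it. Its log2 fold change was -0.69 ± 0.48 with an adjusted p of 0.287. Without siRCC2 replicate 3 it was -1.37 with an adjusted p of 0.0237, and without replicate 1 it was -0.31 with an adjusted p of 0.385. The longest RB1CC1 transcript has 6635 bases, in the length class that was low in siRCC2 replicate 1. ATG101, the remaining subunit, had a log2 fold change of -0.18 (adjusted p = 0.241).

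The class III PI3-kinase complexes, which make the lipid that recruits later factors, had 1 gene that rose. AMBRA1, a regulator that binds Beclin 1, had 853, 746 and 785 counts in siCtrl and 859, 921 and 925 in siRCC2. After scaling its groups did not overlap, with 41.0 ± 1.16 and 49.3 ± 2.35 CPM (SD, n = 3 each) and a log2 fold change of 0.27 ± 0.08 (adjusted p = 0.0316). This call was lost in 10 of 16 alternatives (other scalings, tools, filters and thresholds, and fits without 1 library), where the adjusted p reached 0.107. ATG14, which directs the kinase to autophagy, had 559, 409 and 760 counts in siCtrl and 523, 1035 and 676 in siRCC2, and the groups overlapped (log2 fold change 0.44 ± 0.26, adjusted p = 0.222). PIK3C3, the lipid kinase itself, had 246, 297 and 278 counts in siCtrl and 172, 258 and 297 in siRCC2, a log2 fold change of -0.11 ± 0.18 (adjusted p = 0.640). BECN1 at -0.02 and UVRAG at 0.10, the other Beclin-complex members, were not called either.

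Among the lipid supply and WIPI genes, WIPI2 and ATG9A rose and ATG2B fell. WIPI2 (chr7:5190188-5233826, GRCh38, plus strand) encodes the phosphoinositide reader that recruits the ATG16L1 complex. It had 1406, 1203 and 1154 counts in siCtrl and 2749, 2792 and 2585 in siRCC2. All siRCC2 libraries were far above all siCtrl libraries, with means of 64.7 ± 5.15 and 149 ± 15.9 CPM (SD, n = 3 each). The log2 fold change was 1.20 ± 0.10, a 2.30-fold difference, with an adjusted p of 0.000227. Its paralog WIPI1 was far less abundant, at 8.36 CPM in siCtrl, and had a log2 fold change of -0.06 (adjusted p = 0.776).

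ATG2B, a lipid transfer protein that feeds the growing membrane (chr14:96279202-96363870, GRCh38, minus strand), had the lowest log2 fold change of the 51 genes. Its counts were 1692, 1705 and 1833 in siCtrl and 457, 790 and 885 in siRCC2. The 3 siRCC2 libraries were all low, and replicate 1 was the lowest. The mean went from 90.1 ± 5.47 to 38.2 ± 9.62 CPM (SD, n = 3 each), a log2 fold change of -1.23 ± 0.18 (adjusted p = 0.00185). Its longest transcript has 13684 bases, in the length class that was low in siRCC2 replicate 1, and the log2 fold change was -1.06 without that library and -1.04 with length offsets, a fit that removes each library's trend with transcript length. ATG2A, its paralog, did not pass the test (log2 fold change 0.22, adjusted p = 0.102). ATG9A, the lipid scramblase on the vesicles that seed autophagosomes, had 2575, 2447 and 2429 counts in siCtrl and 2963, 3394 and 2822 in siRCC2. The groups did not overlap, and the log2 fold change was 0.38 ± 0.09 (adjusted p = 0.0117). Without siRCC2 replicate 2 the adjusted p was 0.0668.

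The conjugation machinery split within the ATG4 proteases, which process ATG8 proteins before conjugation and remove them from membranes afterwards. ATG4A (chrX:108091668-108154671, GRCh38, plus strand) had 44, 45 and 51 counts in siCtrl and 100, 155 and 118 in siRCC2. Every siRCC2 library was higher, yet the level was low throughout, at 2.41 ± 0.223 and 6.74 ± 1.08 CPM (SD, n = 3 each). Its log2 fold change of 1.48 ± 0.18 was the highest of the 51 genes (adjusted p = 0.00077). ATG4D, another paralog, had 895, 709 and 798 counts in siCtrl and 409, 420 and 405 in siRCC2, so each siRCC2 library was lower. Its mean went from 41.2 ± 3.10 to 22.5 ± 1.91 CPM (SD, n = 3 each), a log2 fold change of -0.87 ± 0.11 (adjusted p = 0.000825). ATG4B, a further paralog, had 1473, 1401 and 1420 counts in siCtrl and 1571, 1594 and 1633 in siRCC2. Its log2 fold change was 0.24 ± 0.08 with an adjusted p of 0.0427, and the call was lost in 15 of 16 alternatives, where the adjusted p reached 0.125.

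ATG5, the conjugation partner of ATG12, had 327, 287 and 282 counts in siCtrl and 180, 244 and 277 in siRCC2. Its groups did not overlap in CPM, at 15.4 ± 0.849 and 12.7 ± 1.82 (SD, n = 3 each), but the log2 fold change of -0.28 ± 0.13 was not called (adjusted p = 0.134). The ATG5 RNA was thus detected in all 6 libraries of this line. The other conjugation genes also did not pass the test: the E1-like ATG7 at -0.09, the E2-like ATG3 at -0.23 and ATG10 at 0.31, the modifier ATG12 at 0.27, and the scaffold ATG16L1 at -0.04 on the log2 scale.

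In the ATG8 family, the proteins that coat the autophagosome, GABARAP rose and the other members did not pass the test. This was 25.0% of the 4 genes, beside 20.7% called higher of all genes tested. GABARAP had 1518, 1451 and 1466 counts in siCtrl and 2776, 2353 and 1979 in siRCC2. All siRCC2 libraries were above siCtrl, and replicate 1 was the highest. The mean went from 76.4 ± 1.60 to 131 ± 33.1 CPM (SD, n = 3 each), a log2 fold change of 0.78 ± 0.17 (adjusted p = 0.00935). MAP1LC3B, the LC3 protein used most often as an autophagosome marker, had 868, 792 and 1361 counts in siCtrl and 1186, 2060 and 1314 in siRCC2. After scaling, siCtrl replicate 3 lay above siRCC2 replicate 3, so the groups overlapped. Its log2 fold change of 0.66 ± 0.25 gave an adjusted p of 0.0666, which was 0.0212 with DESeq2 and 0.0197 without siCtrl replicate 3.

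GABARAPL1 had 262, 535 and 827 counts in siCtrl and 963, 420 and 1188 in siRCC2, with libraries of both groups spread over each other. Its log2 range within a group was 1.68 in siCtrl and 1.50 in siRCC2, and the log2 fold change of 0.75 ± 0.50 was not called (adjusted p = 0.270). GABARAPL2 had 1105, 938 and 898 counts in siCtrl and 814, 803 and 822 in siRCC2, a log2 fold change of -0.18 ± 0.10 (adjusted p = 0.203).

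**Figure D2:**
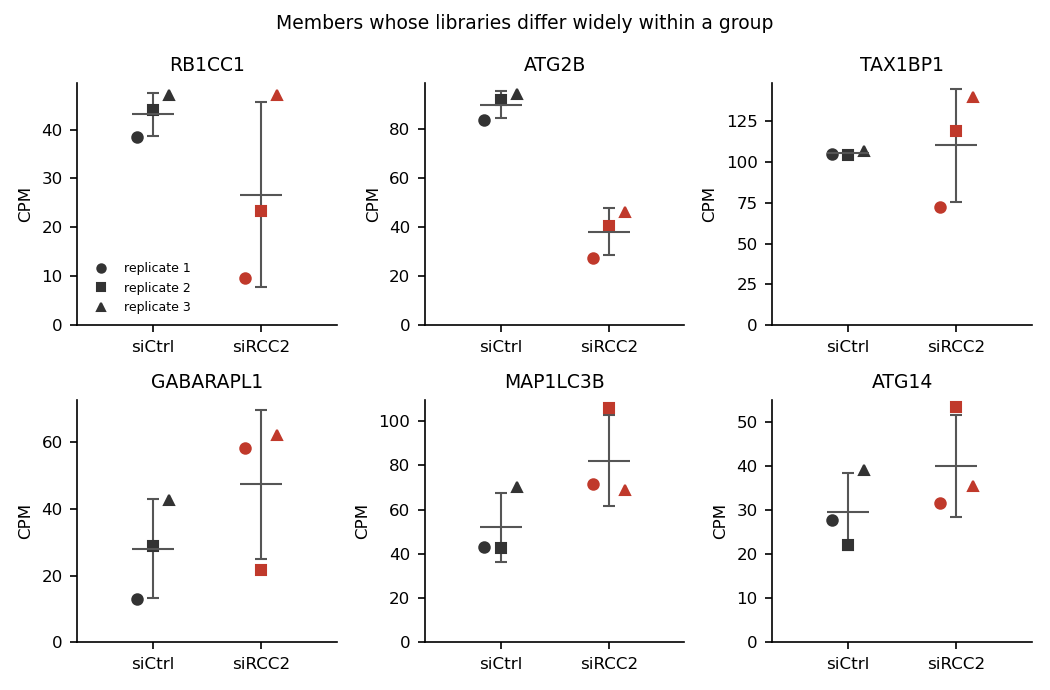
TMM-scaled CPM (y axis, linear) of 6 of the 51 genes with wide spread within a group; symbols mark the replicate, bars the mean and SD of 3 libraries. In RB1CC1 the siRCC2 libraries run from 9.67 to 47.1 CPM, and in ATG2B, the only called gene of the 6, all siRCC2 points lie below siCtrl.

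Among the cargo receptors, which link cargo to ATG8 proteins, OPTN and NBR1 fell and none rose. OPTN, optineurin, had 1098, 1010 and 1034 counts in siCtrl and 634, 766 and 800 in siRCC2. Its mean went from 54.1 ± 0.681 to 39.9 ± 1.85 CPM (SD, n = 3 each), a log2 fold change of -0.44 ± 0.08 (adjusted p = 0.00383). NBR1, a receptor for protein aggregates and peroxisomes, had 3647, 3255 and 3611 counts in siCtrl and 2281, 2615 and 2815 in siRCC2, with a log2 fold change of -0.37 ± 0.07 (adjusted p = 0.00441). Neither gene's groups overlapped. SQSTM1, the receptor p62, was the most abundant of the 51 genes, with 27925, 25607 and 27743 counts in siCtrl and 23283, 26908 and 22435 in siRCC2. The groups overlapped, and the log2 fold change was -0.08 ± 0.08 (adjusted p = 0.463).

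TAX1BP1, another ubiquitin-binding receptor, had 2118, 1935 and 2077 counts in siCtrl and 1193, 2311 and 2661 in siRCC2. The siRCC2 replicate 1 library lay below siCtrl and the other two above it. The log2 fold change was 0.06 ± 0.22 (adjusted p = 0.833), and 0.28 with an adjusted p of 0.0265 without siRCC2 replicate 1. CALCOCO2, the receptor NDP52, had a log2 fold change of 0.02 (adjusted p = 0.920).

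Of the MiT/TFE factors, TFEB rose. TFEB (chr6:41683978-41736259, GRCh38, minus strand) had 224, 161 and 202 counts in siCtrl and 329, 349 and 309 in siRCC2, so each siRCC2 library was higher. Its mean went from 10.1 ± 1.25 to 18.0 ± 1.85 CPM (SD, n = 3 each), a log2 fold change of 0.84 ± 0.14 or 1.79-fold (adjusted p = 0.00312). TFE3, the most abundant of the 3 per length of transcript, had 3421, 3140 and 2971 counts in siCtrl and 3197, 3491 and 3039 in siRCC2, with overlapping groups (log2 fold change 0.11 ± 0.09, adjusted p = 0.347). MITF had 500, 672 and 701 counts in siCtrl and 575, 944 and 1016 in siRCC2. In both groups replicate 1 was the lowest library, and the log2 fold change of 0.49 ± 0.20 was not called (adjusted p = 0.0927). The adjusted p was 0.0228 without siRCC2 replicate 1 and 0.0423 with length offsets. The activity of these factors depends on their place in the cell, which RNA counts do not show.

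LAMP1, a main glycoprotein of the lysosomal membrane, had 4943, 4438 and 4609 counts in siCtrl and 5615, 6089 and 6572 in siRCC2. Every siRCC2 library was higher, with means of 241 ± 4.10 and 333 ± 16.5 CPM (SD, n = 3 each) and a log2 fold change of 0.47 ± 0.06 (adjusted p = 0.00127). LAMP2, its paralog, had 1710, 1380 and 1510 counts in siCtrl and 1319, 1729 and 1787 in siRCC2, with overlapping groups (log2 fold change 0.15 ± 0.09, adjusted p = 0.232). MCOLN1, the lysosomal calcium channel TRPML1, had 900, 815 and 849 counts in siCtrl and 841, 924 and 835 in siRCC2 (log2 fold change 0.10 ± 0.08, adjusted p = 0.363).

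The lysosomal hydrolases held 5 genes that rose and none that fell among 8, with a median log2 fold change of 0.42. Thus 62.5% rose, beside 20.7% higher and 21.1% lower of all genes tested. CTSB, the cysteine protease cathepsin B, had 10609, 10010 and 10066 counts in siCtrl and 23532, 24099 and 21923 in siRCC2. The lowest siRCC2 library lay far above the highest siCtrl library. Its mean went from 528 ± 10.5 to 1271 ± 139 CPM (SD, n = 3 each), a log2 fold change of 1.27 ± 0.09 (adjusted p = 9.65e-05). CTSL, cathepsin L, had 6090, 5087 and 5672 counts in siCtrl and 9602, 9940 and 9308 in siRCC2, a log2 fold change of 0.86 ± 0.08 (adjusted p = 0.000342). CTSZ, cathepsin Z, had 3396, 3187 and 3139 counts in siCtrl and 4507, 4825 and 4516 in siRCC2, a log2 fold change of 0.59 ± 0.07 (adjusted p = 0.000894). In all of these proteases the groups were apart.

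CTSA, the serine carboxypeptidase that protects neuraminidase and beta-galactosidase, went from 289.9 ± 24.7 to 432 ± 48.2 CPM (SD, n = 3 each; log2 fold change 0.58 ± 0.10, adjusted p = 0.0041). GAA, the acid alpha-glucosidase that degrades glycogen, rose by 0.27 ± 0.07 on the log2 scale (adjusted p = 0.0219), but this call was lost in 6 of 16 alternatives, where the adjusted p reached 0.1. CTSD, the aspartic protease cathepsin D, went from 565 ± 55.6 to 656 ± 60.9 CPM with overlapping groups and did not pass the test (log2 fold change 0.21, adjusted p = 0.125). HEXA, a beta-hexosaminidase subunit, had a log2 fold change of 0.17, and GLA, alpha-galactosidase, of -0.16. Neither passed the test.

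The V-ATPase, the proton pump that acidifies the lysosome, held 2 genes that rose and 1 that fell. ATP6V0D1, a subunit of the membrane sector (chr16:67438014-67481237, GRCh38, minus strand), had 1914, 1516 and 1616 counts in siCtrl and 3379, 3297 and 3012 in siRCC2. All siRCC2 libraries were higher, with means of 86.6 ± 7.26 and 177 ± 24.1 CPM (SD, n = 3 each) and a log2 fold change of 1.03 ± 0.12 (adjusted p = 0.000607). ATP6V1H, a regulatory subunit of the cytosolic sector, had 434, 431 and 368 counts in siCtrl and 255, 282 and 267 in siRCC2. Its groups were apart in the opposite direction (log2 fold change -0.54 ± 0.11, adjusted p = 0.00879). ATP6V1A, the catalytic subunit of the cytosolic sector, had 909, 782 and 860 counts in siCtrl and 867, 1085 and 1117 in siRCC2. In CPM its groups did not overlap (log2 fold change 0.34 ± 0.08, adjusted p = 0.013), and without siCtrl replicate 2 the adjusted p was 0.0569. ATP6AP1, an accessory subunit, had a log2 fold change of 0.09 (adjusted p = 0.468).

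**Figure D3:**
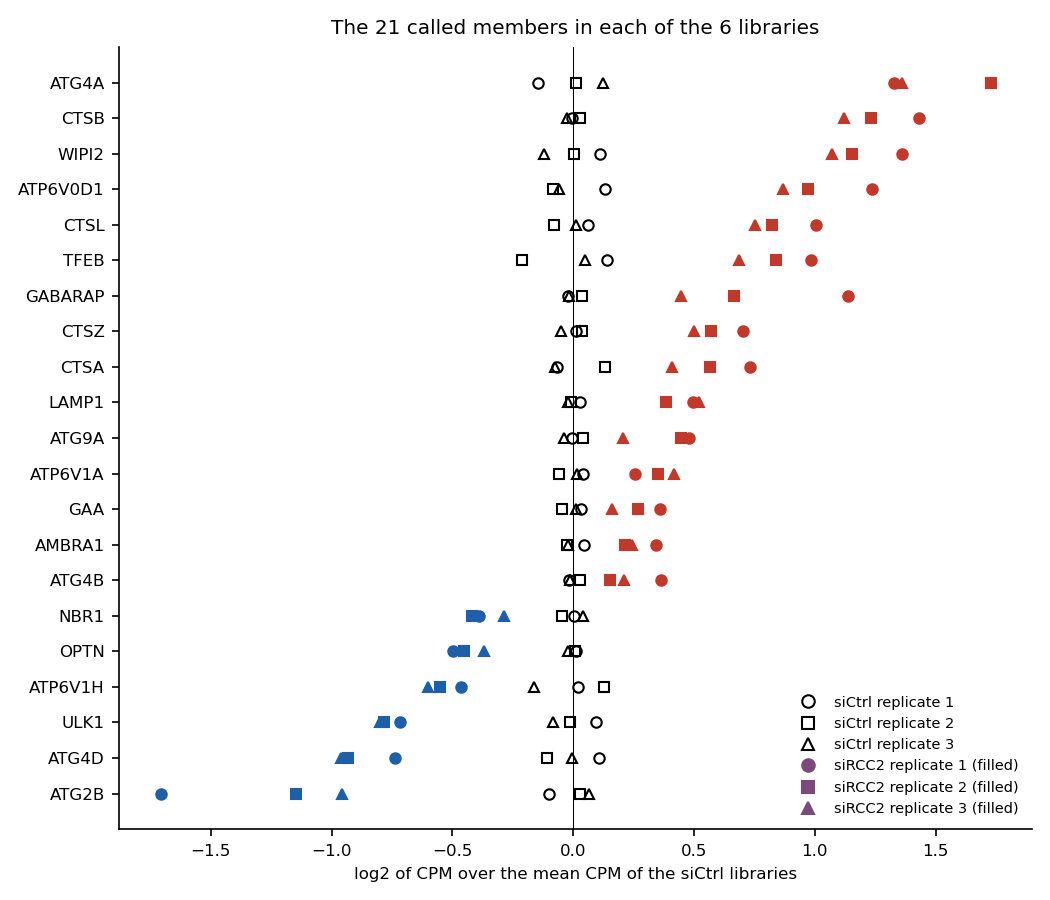
The 21 called genes in each library, as log2 of CPM over the siCtrl mean (x axis); open symbols are siCtrl, filled symbols siRCC2, and the shape gives the replicate. Filled symbols lie on 1 side of the open ones for each gene, and the circle (siRCC2 replicate 1) is the highest filled symbol in 12 of the 15 genes that rose. The genes were drawn because they were called in these same libraries, so this separation adds nothing to the test. Groups lay apart in 55.4% of all genes tested.

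The siRCC2 replicate 1 library was the highest of its group in 12 of the 15 genes that rose (80.0%), beside 1796 of the 3423 genes called higher in the whole table (52.5%). The median of the 51 genes over the siCtrl mean was 0.18, 0.12 and 0.14 log2 units in siRCC2 replicates 1 to 3. Without replicate 1, 17 of the 51 genes were called higher and 8 lower, and the share of all genes called was 44.5% in place of 41.8%. Of the 51, 6 belong to the longest and 4 to the shortest length quintile, and with length offsets 15 were called higher and 6 lower.

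Levels per length of transcript (mean CPM per kilobase of the longest GENCODE transcript) put SQSTM1 and proteases on top. In siCtrl, SQSTM1 was first at 468 and CTSD second at 266, followed by CTSB at 136, CTSL at 133, CTSZ at 112 and CTSA at 94.9. In siRCC2, CTSB was at 328, above CTSD at 309, while SQSTM1 was at 443. The lowest levels in siCtrl were those of ATG4A at 0.964, PIK3C3 at 1.50 and ATG10 at 1.55, and in siRCC2 these genes were at 2.69, 1.39 and 1.92. TFE3 was at 48.0 in siCtrl, beside 6.73 for MITF and 3.88 for TFEB, and in siRCC2 the levels were 52.0, 9.46 and 6.95. The gain in TFEB therefore left it at a lower level than TFE3 on this scale.

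**Figure D4:**
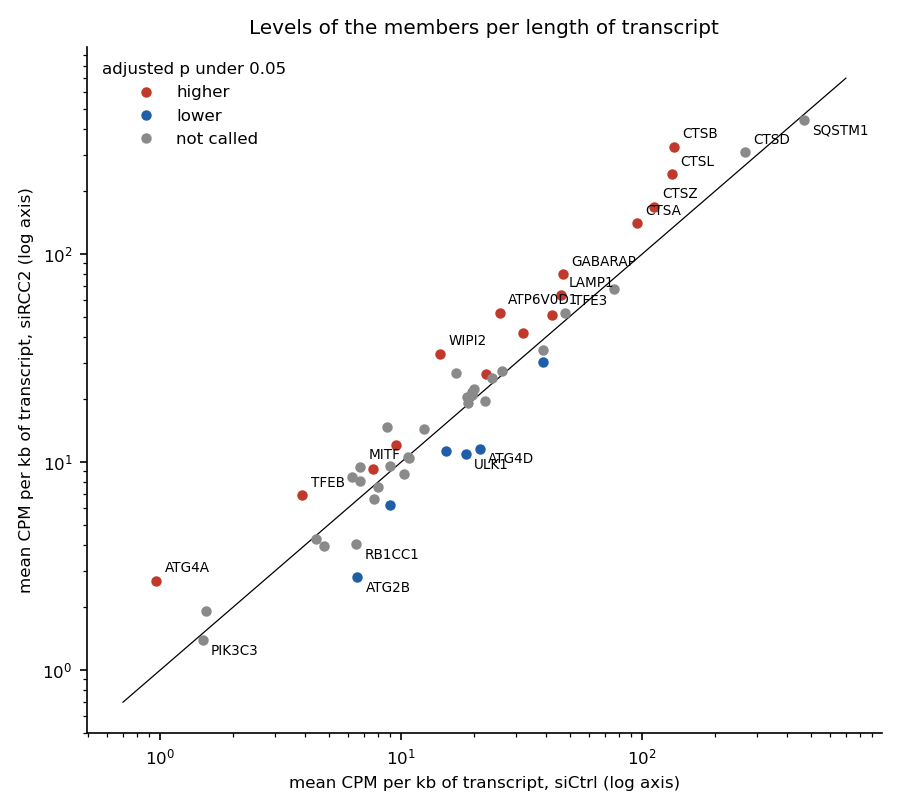
Mean CPM per kilobase of transcript in siCtrl (x axis) and siRCC2 (y axis), both log axes, 1 point per gene coloured by call; the line marks equal levels. SQSTM1 and the cathepsins lie at the upper right, and the called cathepsins CTSB, CTSL, CTSZ and CTSA lie above the line.

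Promoter sequences are shown because TFEB and its relatives are known to bind an E-box-like element, TCACGTGA, the core of the lysosomal gene motif called CLEAR. The windows came from RefSeq (GRCh38.p14) and run from 250 bases before to 50 after each start site, and 43 of the 51 genes were matched by symbol (all but RB1CC1, UVRAG, ATG4D, LAMP2, CTSB, HEXA, ATP6V1H and ATP6V1A). The 8 letters are their own reverse complement, so a match counts for both strands, and they contain the shorter CACGTG. TCACGTGA occurred in the windows of 6 of the 43 genes (14.0%), beside 1.18% of all 27305 genes with a promoter entry. The shorter CACGTG occurred in 8 of the 43 (18.6%), which adds CTSD and ATG14, beside 8.77% of all genes. The motif is known from lysosomal genes, which this list holds by choice, so these shares are no result of the knockdown. The 27305 genes were not limited to those tested here, while all 43 were tested. Each match is shown with 11 bases on either side, on the gene's strand, with the match in capitals.
CTSA, chr20:45891298-45891327, plus strand: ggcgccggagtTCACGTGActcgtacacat
ATP6V0D1, chr16:67481199-67481228, minus strand: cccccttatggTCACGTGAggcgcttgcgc
LAMP1, chr13:113297199-113297228, plus strand: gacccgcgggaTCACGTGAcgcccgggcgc
LAMP1, chr13:113297226-113297255, plus strand: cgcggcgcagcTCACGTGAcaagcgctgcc
GAA, chr17:80101493-80101522, plus strand: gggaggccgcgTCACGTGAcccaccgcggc
GAA, chr17:80101538-80101567, plus strand: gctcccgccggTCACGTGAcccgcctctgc
MCOLN1, chr19:7522571-7522600, plus strand: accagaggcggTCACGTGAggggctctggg
MCOLN1, chr19:7522598-7522627, plus strand: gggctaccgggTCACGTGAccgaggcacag
ATG3, chr3:112561940-112561969, minus strand: agagtctagtgTCACGTGAggccccggtgg

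CTSA, ATP6V0D1, LAMP1 and GAA rose, with log2 fold changes of 0.58, 1.03, 0.47 and 0.27. MCOLN1 and ATG3 carry the same letters and did not pass the test, at 0.10 and -0.23. AMBRA1, WIPI2, ATG9A, ATG4A, ATG4B, GABARAP, CTSL, CTSZ and TFEB itself rose and have no TCACGTGA in the window, which says only that these letters are not there. In GAA, LAMP1 and MCOLN1 the letters occur at 2 places each. The matches start between 77 bases before and 5 bases after the start site. A match is a description of sequence, and no binding was measured here.

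Genes of the same pathways outside the 51 were counted over 7 lists. Of 160 tested, 46 were called higher (28.8%) and 30 lower (18.8%), with a median log2 fold change of 0.07. The 35 genes of mTORC1, AMPK and amino acid sensing, the kinases that set TFEB and ULK1 activity, split into 9 higher and 8 lower. These were 25.7% and 22.9% of that list, beside 20.7% and 21.1% of all genes tested. In that list DDIT4, a stress-induced inhibitor of mTORC1, fell by 2.18 on the log2 scale (adjusted p = 2.00e-05), from 767 ± 30.7 to 169 ± 13.7 CPM (SD, n = 3 each). LAMTOR1, the lysosomal anchor of the Ragulator complex, rose by 0.93 on that scale (adjusted p = 0.000745), and AKT1S1, the mTORC1 subunit PRAS40, by 0.56 (adjusted p = 0.0018).

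Other genes of the lysosome are set beside the 20.7% called higher and 21.1% called lower of all genes tested. Of 20 other lysosomal membrane genes, 8 were higher (40%) and 3 lower (15.0%), led by LAPTM4A at a log2 fold change of 0.92, LAPTM4B at 0.76 and PIP4P2, a phosphoinositide phosphatase, at -1.50. Of 15 other V-ATPase genes, 7 were higher (46.7%) and 3 lower (20%), and the named subunits were ATP6V0E1 at 1.32, ATP6V1G1 at 1.03 and ATP6V0A2 at -1.06. Of 35 other hydrolases and activators, 11 were higher (31.4%) and 6 lower (17.1%), with a median log2 fold change of -0.01 and 17 values above and 18 below 0. GALC, the galactosylceramidase, was at -1.49 and PPT1, the palmitoyl-protein thioesterase, at 1.07, with IDS, iduronate 2-sulfatase, at 0.68, and all of these named genes passed the test.

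The 21 other autophagosome formation genes split into 5 higher (23.8%) and 6 lower (28.6%), beside 20.7% and 21.1% of all genes tested. WDR45B, itself a member of the WIPI family, had a log2 fold change of 0.55, TP53INP2 of 0.62 and TECPR2 of -0.62. Of 17 other cargo and organelle receptors, 4 were higher (23.5%) and 2 lower (11.8%). In that list BCL2L13, a mitophagy receptor, had -1.12, NCOA4, the ferritin receptor, 1.01, and RETREG1, the endoplasmic reticulum receptor FAM134B, -2.95. RETREG1 had 136, 123 and 127 counts in siCtrl and only 16, 20 and 11 in siRCC2, which made it the largest change of a receptor in any list here. Of 17 fusion genes, 2 were higher (11.8%) and 2 lower (11.8%), with RILP at -0.45 and VPS11 at 0.24.

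**Figure D5:**
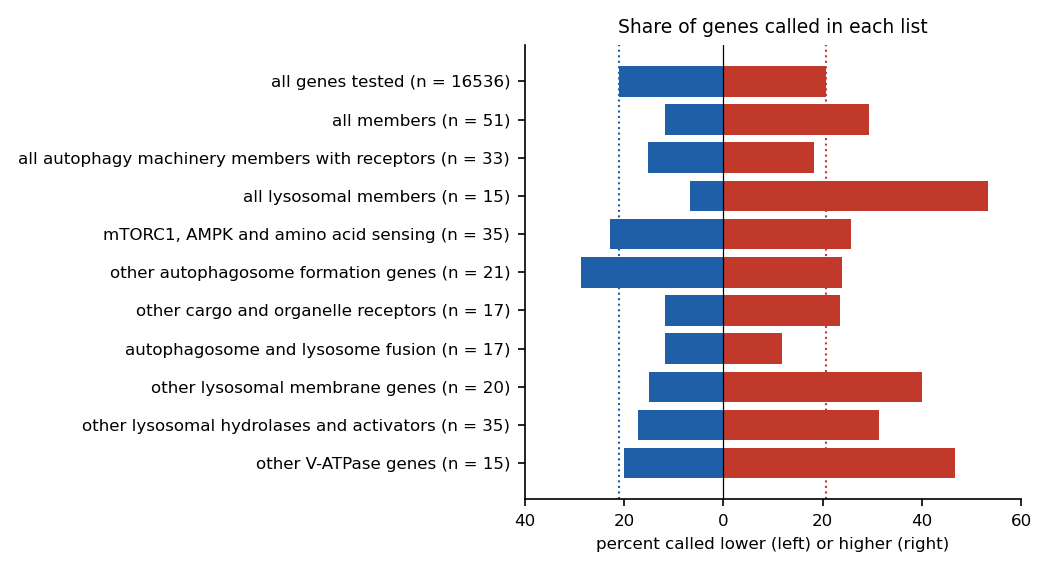
Percent of tested genes called lower (bars to the left) and higher (bars to the right) in all genes, in 3 pooled groups of the 51 genes and in the 7 pathway lists, with the number tested in brackets; dotted lines mark the 21.1% and 20.7% of all genes. Of the 11 rows drawn, which do not show the role groups singly, that of the 15 lysosomal members reaches farthest to the right, at 53.3% higher and 6.67% lower.

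Reads that several genes share touch some of these values. RSEM, the counting tool in the submitters' notes, divides reads among genes with like sequence, and whether strand was used is not given in the sources used here. CTSD shares 60.6% of the 50-base stretches of its longest transcript with other genes, chiefly the overlapping gene AC068580.4. That gene had 91, 93 and 111 counts in siCtrl and 572, 655 and 583 in siRCC2 (log2 fold change 2.70, adjusted p = 3.43e-05). CTSD plus AC068580.4 had a log2 ratio of means of 0.27, and the groups of this sum did not overlap in CPM, unlike those of CTSD. GABARAP shares 42.0%, and its sum with AC120057.2 had a log2 ratio of 0.74, while ATG9A shares 44.8% with AC068946.2, which has no row. The other members share at most 6.9%, which is the share of MAP1LC3B. MAP1LC3B2, the gene it chiefly shares with, rose (adjusted p = 0.0124). Their sum had a log2 ratio of 0.66, and its groups did not overlap in CPM. Exons of another gene cover at least 10% of the exon bases of 11 of the 51 genes, among them ATG4D, over which KRI1 lies on the opposite strand for 15.0% of those bases. KRI1 had a log2 fold change of 0.14 and was not called.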

How the data were processed

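RNA sequencing libraries were made from DU145 cells, 3 labelled siCtrl and 3 labelled siRCC2, grouped by sample title. The authors deposited 1 table per library with whole-number read counts for 50868 genes. GRCh38, Bowtie2, RSEM and DESeq2 are named, without versions or steps, per the submitters' processing notes, so RSEM estimates may have been rounded before deposit. Library preparation was an MGI kit for total RNA, per the labels' protocols, and strand handling is not given in the sources used here.

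The test of the counts was that of edgeR 4.0.16 in R 4.3.3 (filterByExpr, TMM scaling, quasi-likelihood F-test, Benjamini-Hochberg adjustment over 16536 genes, threshold 0.05). Standard errors are log2 fold changes over the square root of F, and CPM values are TMM-scaled. The biological coefficient of variation was 16.6%. No library was a copy of another: within a group, chi-square over its degrees of freedom was 9.56 to 31.9. The code was checked on simulated counts.

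The 51 genes, the pathway lists and the marker lists were chosen with earlier results of these data known. Counts per library are given for up to 3 genes of each role group with the smallest p and for TFEB, TFE3, MITF, ATG5 and MAP1LC3B. RB1CC1, TAX1BP1, GABARAPL1, CTSA, CTSD, AC068580.4 and MAP1LC3B2 were added after their values were seen, as were the genes plotted for their spread. Of 168 pathway genes, 164 had 1 row and 160 were tested, and up to 3 per list are named. Some marker and pathway genes are not reported here. The ATG8 protein sequences are not printed.

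Alternatives were other scalings, DESeq2 1.42.0, limma-voom (limma 3.58.1), other filters, a threshold of 0.01, a replicate block and fits without each library in turn. Length offsets (a lowess curve on transcript length per library) were added after seeing the data. Gene structure and lengths came from GENCODE release 29, which holds 50111 of the identifiers. Figures used Python 3.11.15, pandas 2.3.3 and matplotlib 3.10.9.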

Additional observations from a re-analysis of the deposited data

How the results depend on the processing

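Over the alternatives, 10 (at a threshold of 0.01) to 17 of the 51 genes were called higher and 6 to 8 lower, and the median log2 fold change was 0.08 to 0.18. With total count alone the median was 0.08, where the median of all genes was -0.08 in place of -0.02. Leaving out 1 library at a time gave 11 to 17 higher, 6 to 8 lower and a median of 0.14 to 0.18, while the share of all genes called ran from 30.2% to 44.5%. Of the 21 called genes, 16 (10 higher, 6 lower) passed in all 16 alternatives and none reversed. AMBRA1, ATG9A, ATG4B, GAA and ATP6V1A lost their call in at least 1, and 11 uncalled genes gained one in at least 1. The replicate block gave 15 higher, 6 lower and a median of 0.15, with 6295 calls in all genes in place of 6911. It gave MITF an adjusted p of 0.0129 and CTSD one of 0.0367. Deviations of same-numbered libraries correlated at 0.06, -0.04 and 0.10, and not every library correlated best with its own number. With 3 libraries per group, values this small cannot decide whether the numbers pair the libraries. At this depth, genes near 1 CPM rest on about 17 to 20 reads per library.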

Other observations

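MAP1LC3C, an ATG8 family gene outside the 51, was chosen after its values were seen. It had 4, 0 and 0 counts in siCtrl and 32, 21 and 20 in siRCC2, with means of 0.0662 and 1.36 CPM, so its level was near the limit of what these libraries can show. Genes that lie across members moved in places where the member did not pass the test. VGLL4, which covers 18.1% of the exon bases of ATG7 on the opposite strand, had a log2 fold change of 1.09 (adjusted p = 9.83e-05), while ATG7 was at -0.09. ARSG, which covers 24.3% of the exon bases of WIPI1 on the opposite strand, had a log2 fold change of -1.09 (adjusted p = 0.00249), while WIPI1 was at -0.06. The part that shared reads have in these values was not tested.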
